A study of Mus musculus with 6 samples.

Results

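A set of 9 genes that govern how macrophages and their precursors grow and take on their identity were followed in 6 mouse gliomas measured on expression arrays. They were the ligand gene Csf1, the receptor genes Csf1r, Csf2ra and Csf3r, and the transcription factor genes Spi1, Cebpb, Irf8, Runx1 and Sall1. They were chosen by name, with earlier results of these data known. All 9 members were measured, each by 1 probe set (a group of array probes summarised as 1 value). They were among 19938 genes with a probe set of a single gene symbol. The tumours grew from cells of a glioma driven by mutant EGFR, the epidermal growth factor receptor, implanted under the flank skin of Nu/Nu mice, which lack a thymus. The groups were 3 control gliomas, labelled 1, 2 and 4, and 3 gliomas, labelled 1, 2 and 3, that relapsed after the mutant receptor was extinguished. Some of the mice drank doxycycline (2 g/L) and others plain water, and tumours of either group were taken at 2 cm3. The labels do not say which group drank the drug, nor do they give the animals' age, the cell line, its number of clones, or whether each tumour came from its own mouse, so the p-values measure only the spread between these samples. A host without a thymus still has its own macrophages, and the arrays read RNA of host and tumour cells together.

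Colony-stimulating factors are secreted proteins that keep myeloid cells alive and make them divide. CSF1 acts through the receptor tyrosine kinase CSF1R, on which most tissue macrophages and microglia depend, while the receptors for GM-CSF and G-CSF (the alpha chain CSF2RA and CSF3R) signal through JAK kinases and serve macrophages and neutrophils. PU.1, the product of Spi1, is the master transcription factor of the myeloid lineage and switches on Csf1r together with RUNX1 and C/EBP factors; IRF8 directs monocytes and microglia, and SALL1 helps set microglial identity in brain but is also expressed in neural progenitors.

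Values are log2 intensities, so a difference of 1 is a doubling. In relapsed tumours Csf1r rose and Sall1 fell, each by about 1 log2 unit, at an adjusted p under 0.05 in limma with Benjamini-Hochberg adjustment over all genes. These were 1 of 9 members higher and 1 of 9 lower, against 3.69% of all genes called higher and 5.47% called lower. The other 7 did not pass, although all of them had a higher mean in relapsed tumours. For 5 members, Csf1, Csf1r, Csf3r, Spi1 and Runx1, every relapsed tumour lay above every control, against 13% of all genes, and for Sall1 every relapsed tumour lay below, against 17.8%. Together these are 6 of 9 members, against 30.8% of all genes. The median difference of the members was 0.51, beside -0.02 over all genes. The number of arrays limits the precision of all these values. In bulk tumours, a smaller number of cells of a type and less RNA per cell cannot be told apart.

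**Figure D1:**
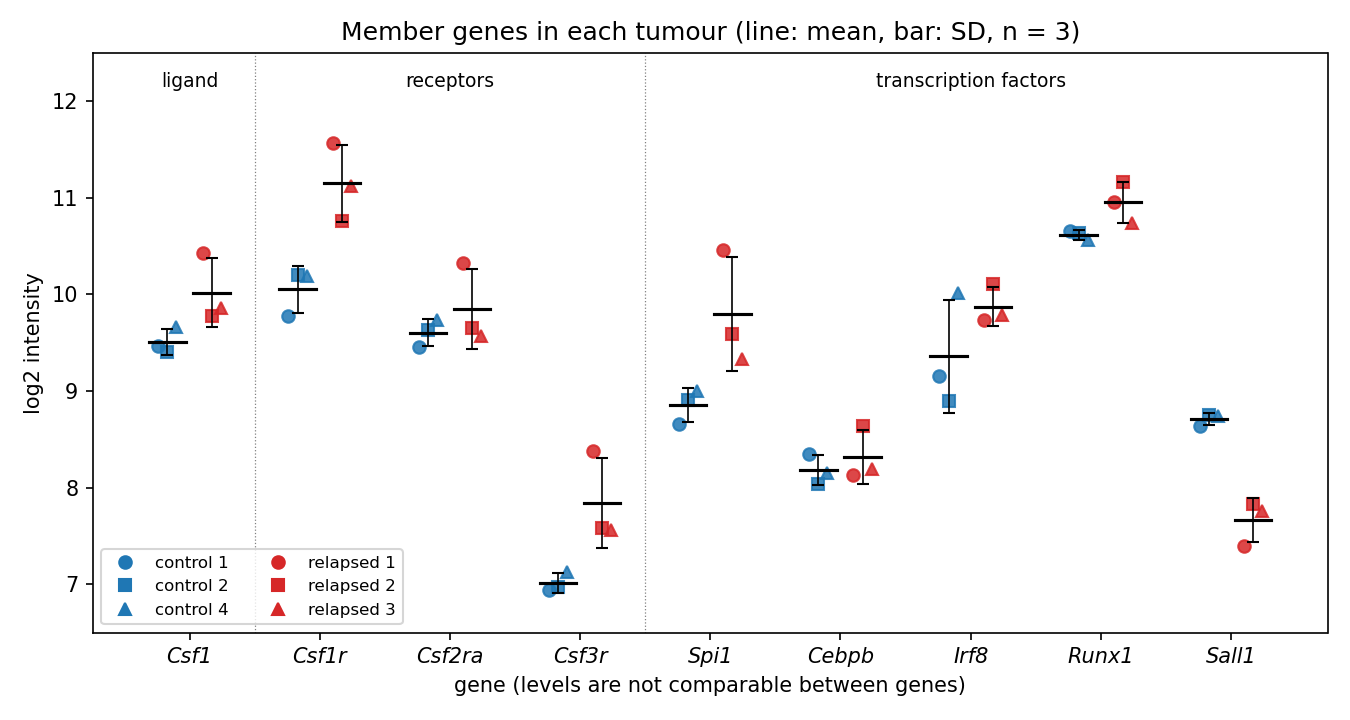
Log2 intensity of each member gene (x axis, grouped as ligand, receptors and transcription factors) in the 3 control (blue) and 3 relapsed (red) gliomas; lines are group means and bars are SD. The groups are apart for Csf1, Csf1r, Csf3r, Spi1, Runx1 and Sall1 and overlap for Csf2ra, Cebpb and Irf8.

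The DNA just before the start of 7 members was at hand in RefSeq (build GRCm38.p6), in 11 windows of 250 bases since some genes have several starts. Spi1 had no entry, and Csf1r was not used here. 5 short words were searched on both strands: GAGGAA, a core bound by PU.1; TGTGGT, bound by RUNX factors; TTGCNNAA, bound by C/EBP factors; the ETS-IRF composite word, bound by PU.1 with IRF factors; and the IRF word, bound by IRF factors alone. The last pair of words can overlap each other. 4 matches were found, all of GAGGAA, in 3 of the 11 windows, and 23.3% of all 32851 windows of this length hold that word, so its share among the members' windows is near the background. None of the 11 windows held the other words, which were in 14% (RUNX), 9.56% (C/EBP), 2.3% (PU.1 with IRF) and 2.98% (IRF) of all windows. None of the genes with a match passed the test, although for Csf3r and Runx1 every relapsed tumour lay above the controls. Of the searched members Sall1 alone passed, so this cannot relate matches to expression. The windows with a match belong to Csf2ra, Csf3r and Runx1. They are given here with one of the 3 windows of Sall1, the member that fell. Each runs 5′ to 3′ on the gene's strand and ends at the base before the start, with matches in capitals.
Csf2ra, chr19:61228419-61228668, minus strand: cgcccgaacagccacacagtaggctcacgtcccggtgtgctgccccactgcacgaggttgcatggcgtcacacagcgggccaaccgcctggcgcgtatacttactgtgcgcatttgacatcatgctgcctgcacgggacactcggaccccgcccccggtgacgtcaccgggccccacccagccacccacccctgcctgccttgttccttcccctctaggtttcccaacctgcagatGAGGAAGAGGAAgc
Csf3r, chr4:126024409-126024658, plus strand: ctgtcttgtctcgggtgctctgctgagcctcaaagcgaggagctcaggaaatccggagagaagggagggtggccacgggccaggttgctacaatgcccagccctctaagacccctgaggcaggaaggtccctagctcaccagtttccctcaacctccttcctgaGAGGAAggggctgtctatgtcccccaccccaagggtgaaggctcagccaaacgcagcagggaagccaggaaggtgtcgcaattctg
Runx1, chr16:92697330-92697579, minus strand: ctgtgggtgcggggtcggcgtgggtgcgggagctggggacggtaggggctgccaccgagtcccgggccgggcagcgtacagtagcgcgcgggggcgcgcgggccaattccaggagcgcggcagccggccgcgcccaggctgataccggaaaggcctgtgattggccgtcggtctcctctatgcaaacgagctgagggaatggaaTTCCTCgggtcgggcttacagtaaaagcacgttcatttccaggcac
Sall1, chr8:89044163-89044412, minus strand: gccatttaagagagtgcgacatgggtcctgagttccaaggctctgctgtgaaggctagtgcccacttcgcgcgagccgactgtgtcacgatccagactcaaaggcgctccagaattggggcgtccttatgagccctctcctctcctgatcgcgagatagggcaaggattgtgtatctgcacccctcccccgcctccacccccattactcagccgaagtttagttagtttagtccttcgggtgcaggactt
In Csf2ra the matches begin 14 and 8 bases before the start and follow each other directly. In Csf3r the match begins 86 bases before the start. In Runx1 it begins 46 bases before the start and reads TTCCTC, the word on the opposite strand. These matches describe letters in the windows and not binding.

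Csf1, the ligand of CSF1R, is made by many cell types, fibroblasts and endothelial cells among them. It measured 9.46, 9.41 and 9.66 in control 1, 2 and 4 and 10.43, 9.77 and 9.86 in relapsed 1, 2 and 3. The relapsed tumours were all higher, by a gap of only 0.11 between the nearest pair, and relapsed 1 stood well above relapsed 2 and 3. The difference of 0.51 ± 0.19 (SE), or 1.42-fold, had a 95% interval of 0.03 to 0.99 and did not pass (adjusted p = 0.167 in limma). Without relapsed 1 it was 0.31. Array medians were higher in relapsed (6.67 to 6.68) than in control tumours (6.58 to 6.62). With each array centred on its median the Csf1 difference was 0.43. Markers of fibroblasts, cells that can make the ligand, were higher in the same tumours. Of 10 such markers, 7 rose and none fell, against 3.69% of all genes called higher and 5.47% lower. Their scores were 0.49 to 1.19 against -0.94 to -0.51 in controls. Lum and Dcn, small proteoglycans of collagen fibrils, rose by 2.76 ± 0.49 and 1.85 ± 0.13, Dpt, which encodes dermatopontin, by 2.52 ± 0.47, and Fap, a fibroblast surface protease, by 2.00 ± 0.40. A score here is the mean over a list of each gene's log2 value minus that gene's mean over the 6 arrays. Endothelial markers went the other way, and 8 of 9 had a lower mean in relapsed tumours, with a median difference of -0.26. The part of either cell type in the Csf1 values was not tested. Il34, the second ligand of the same receptor, chosen after its values were seen, differed by -0.02 ± 0.06, with values of 9.16 to 9.33 in control and 9.19 to 9.25 in relapsed tumours.

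Csf1r was the 1 member that rose. It stood at 9.77, 10.20 and 10.19 in control 1, 2 and 4 and at 11.56, 10.76 and 11.12 in relapsed 1, 2 and 3. Control 1 was the lowest and relapsed 1 the highest, and the groups were 0.56 apart. The difference was 1.10 ± 0.23 (SE), or 2.14-fold, from 10.05 ± 0.24 to 11.15 ± 0.40 (SD, n = 3), with a 95% interval of 0.51 to 1.68. Its adjusted p of 0.0486 in limma lay just under the threshold. The call was lost without any single array, at adjusted p of 0.0630 to 0.137, although the difference stayed between 0.89 and 1.29. It was also lost with all 35556 probe sets tested, at an adjusted p of 0.0658. The genes with the most similar profile over the 6 arrays, by the root mean square difference of centred log2 values, were Dock8 (0.067), which encodes an exchange factor for Cdc42 in leukocytes, Maf (0.073), a transcription factor of macrophages, and Tceal1 (0.092).

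Csf2ra encodes the alpha chain that binds GM-CSF. It measured 9.45, 9.63 and 9.73 in control 1, 2 and 4 and 10.33, 9.66 and 9.57 in relapsed 1, 2 and 3. Relapsed 1 was alone in being high, and relapsed 2 and 3 lay within the control range. The difference of 0.25 had a 95% interval of -0.31 to 0.80 (adjusted p = 0.542 in limma), and without relapsed 1 it was 0.0069. Its signalling partner Csf2rb and the related chain Csf2rb2 did not overlap between the groups and did not pass. Csf2rb, the common beta chain, was 0.68 ± 0.17 higher with an adjusted p of 0.0648 in limma, and Csf2rb2, its mouse paralogue for IL-3, was 0.53 ± 0.19 higher with an adjusted p of 0.148. The 2 paralogues are close in sequence, so their probe sets may share signal. Csf2rb passed when only the brighter 50% of genes were tested (adjusted p = 0.0366) and with quantile normalization (adjusted p = 0.0498).

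Csf3r encodes the G-CSF receptor of neutrophils and monocytes. It measured 6.94, 6.98 and 7.13 in control 1, 2 and 4 and 8.38, 7.59 and 7.56 in relapsed 1, 2 and 3. The controls were tightly grouped, and every relapsed tumour was higher, relapsed 1 most of all. The difference of 0.83 ± 0.24, or 1.77-fold, did not pass (adjusted p = 0.0966 in limma), and its 95% interval ran from 0.23 to 1.43. It passed without relapsed 1, where it was smaller (0.56, adjusted p = 0.0435), and when only the brighter genes were tested, those above the median mean signal (adjusted p = 0.0494). Over all alternatives the adjusted p lay between 0.0435 and 0.462. Of 12 neutrophil markers none was called, with a median difference of 0.25 and scores of -0.24 to 0.02 in control and 0.01 to 0.21 in relapsed tumours. Those with the smallest p were Mmp8, a collagenase of neutrophil granules, at 0.38 ± 0.10 (adjusted p = 0.0743 in limma, groups apart), and Retnlg at 0.35 ± 0.13 (adjusted p = 0.170). Both were dim, with means of 4.15 and 4.82 in control and 4.53 and 5.16 in relapsed tumours. Probe sets listed with no gene had a median of 5.66. Elane and Mpo, the granule enzymes of neutrophil precursors, differed by -0.02 and -0.01, Ly6g, a mature neutrophil marker, by 0.22, and S100a8 and S100a9 by 1.05 ± 0.57 and 0.80 ± 0.52. These 5 were named after their values were seen, and the means of Mpo, Ly6g and S100a8 also lay below 5.66 in both groups.

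The family has further ligands and receptors, which act on early blood cells, eosinophils, dendritic cells and mast cells. Of 13 further genes of this kind, which include Il3, Il5, Csf2, Csf3, Flt3 and Kit with their partners, none was called (6 had a lower and 7 a higher mean), and the median difference was 0.03.

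Spi1, which encodes PU.1, measured 8.66, 8.91 and 9.002 in control 1, 2 and 4 and 10.46, 9.59 and 9.34 in relapsed 1, 2 and 3. All relapsed tumours were above the controls, but they spread over more than 1 log2 unit, with an SD of 0.59 against 0.18 in control. The difference of 0.94 ± 0.31, or 1.92-fold, had a 95% interval of 0.18 to 1.70 and did not pass (adjusted p = 0.125 in limma). Over all alternatives its adjusted p ran from 0.0622 to 0.484, and without relapsed 1 the difference was 0.61.

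Irf8 did not separate the groups. It measured 9.16, 8.90 and 10.02 in control 1, 2 and 4 and 9.73, 10.11 and 9.79 in relapsed 1, 2 and 3. Control 4 stood above relapsed 1 and relapsed 3, while the other controls lay below all relapsed tumours. The difference was 0.52 with a 95% interval of -0.25 to 1.29 (adjusted p = 0.355 in limma). It was 0.85 without control 4 (adjusted p = 0.0824) and 0.29 without control 2.

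Runx1, a factor of blood stem cells and myeloid precursors, had the smallest spread among controls. It measured 10.66, 10.64 and 10.56 in control 1, 2 and 4 and 10.96, 11.16 and 10.74 in relapsed 1, 2 and 3. The relapsed tumours were all higher, by a gap of 0.084 at the nearest, and relapsed 2 was the highest. The array medians were also higher in relapsed tumours, an offset close in size to this gap. The difference of 0.33 ± 0.12 (adjusted p = 0.142 in limma) had a 95% interval of 0.05 to 0.62. As a fold this is 1.26. With each array centred on its median the difference was 0.26.

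Cebpb, a factor of inflammatory macrophages that many other cells also make, measured 8.35, 8.04 and 8.15 in control 1, 2 and 4 and 8.13, 8.64 and 8.19 in relapsed 1, 2 and 3. The groups overlapped, and relapsed 2 alone stood above the controls. The difference of 0.14 had a 95% interval of -0.27 to 0.54 (adjusted p = 0.643 in limma), and without relapsed 2 it was -0.02.

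Sall1 went the other way from the rest. It measured 8.63, 8.75 and 8.74 in control 1, 2 and 4 and 7.40, 7.83 and 7.76 in relapsed 1, 2 and 3. The controls agreed within 0.12, all relapsed tumours were lower, and relapsed 1, which was highest for 5 other members, was lowest here. Sall1 fell by 1.04 ± 0.13, or 2.06-fold, from 8.71 ± 0.06 to 7.66 ± 0.23 (SD, n = 3), with an adjusted p of 0.0162 in limma. The call held without relapsed 1 or relapsed 2 (adjusted p = 0.0234 and 0.0442) and was lost without control 1, 2 or 4 or relapsed 3 (0.0544, 0.0512, 0.0638 and 0.0569), while the difference stayed between -1.13 and -0.91. Its relatives Sall2 and Sall3, which encode zinc finger factors of the developing nervous system, fell as well, by 1.18 ± 0.19 and 1.18 ± 0.17 (adjusted p = 0.0261 and 0.0200 in limma). Sall4, named after its values were seen, differed by -0.02 ± 0.06. The 3 genes with the profile most like that of Sall1 were Cdr2l (root mean square difference 0.055), Agrn (0.070), which encodes the heparan sulfate proteoglycan agrin, and Ptpn5 (0.082), which encodes a phosphatase of neurons.

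Sall1 is expressed in microglia and neural progenitors, and the marker lists named for these cells differed in opposite directions. The tumours grew under the flank skin and not in brain, so higher values of the microglia list do not show that microglia were present. Of 11 neural progenitor markers, 6 fell and none rose, against 5.47% of all genes called lower and 3.69% higher. Their median difference was -1.21, with scores of 0.54 to 0.93 in control and -0.86 to -0.56 in relapsed tumours. Olig2 and Olig1, factors of oligodendrocyte progenitors, Fabp7, a fatty acid-binding protein of radial glia, and Msi1, an RNA-binding protein of progenitors, fell, with differences of -3.54, -3.52, -2.21 and -1.60. Of 9 microglia markers none was called, yet all had a higher mean in relapsed tumours, with a median difference of 0.99. Those with the smallest p were Cx3cr1, the fractalkine receptor, at 1.24 ± 0.28, and Tmem119, a microglial membrane protein, at 1.07 ± 0.24; limma gave them adjusted p of 0.0552 and 0.0561. The part of either cell type in the Sall1 values was not tested. Of 6 astrocyte markers, 5 were higher by mean in the relapsed group, with a median difference of 0.26. None of them rose by the test, and Slc1a3, a glutamate transporter, fell by 1.56. Aqp4, the astrocyte water channel, was 1.04 ± 0.37 higher with the groups apart and did not pass (adjusted p = 0.150 in limma). Gfap, the defining filament gene, named like Aqp4 after its values were seen, stood at 9.38 ± 0.66 in control and 10.02 ± 0.71 in relapsed tumours.

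**Figure D2:**
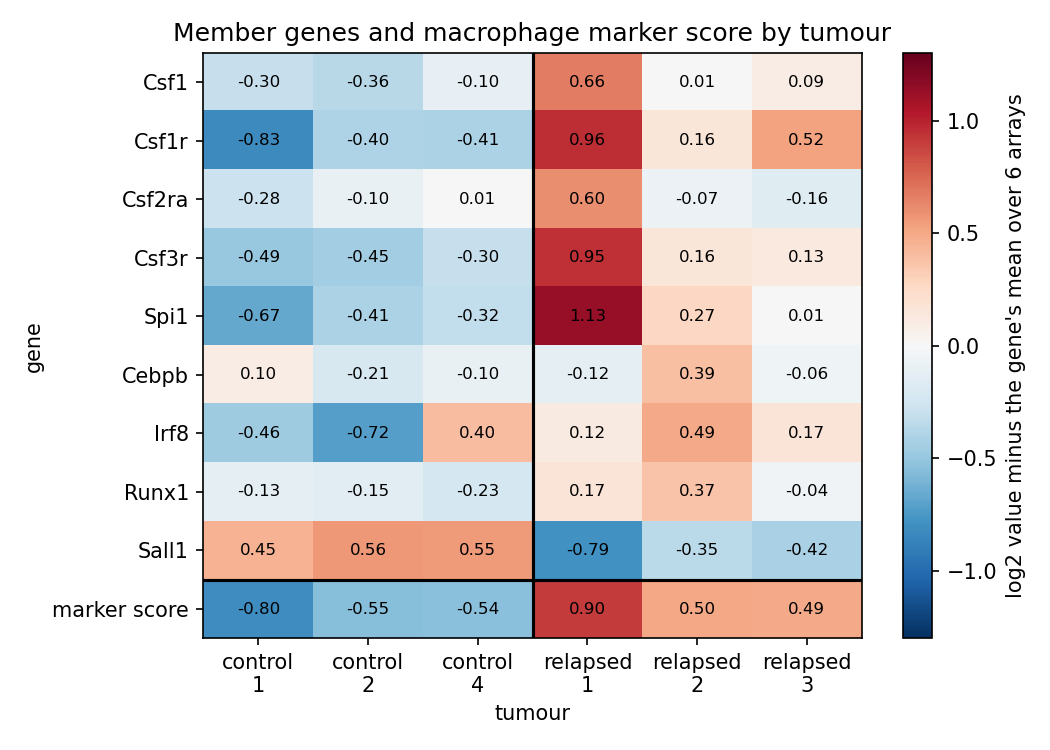
Each cell gives a gene's log2 value minus its mean over the 6 arrays, for the 9 members (rows) in each tumour (columns), with the score of 21 macrophage markers in the last row. Relapsed 1 holds the highest value of Csf1, Csf1r, Csf2ra, Csf3r and Spi1 and the lowest of Sall1, and relapsed 2 the highest of Cebpb, Irf8 and Runx1.

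The spread between tumours of a group was unequal. The SD was larger in the relapsed group for 8 of 9 members, Irf8 being the exception, beside 54.1% of all genes. Relapsed 1 was the highest of the 6 arrays for 5 members and relapsed 2 for the other 3 that were higher. Relapsed 1 also had the highest macrophage score (0.90, against 0.50 and 0.49 in relapsed 2 and 3) and its adipocyte markers scored 2.66, while the remaining 5 arrays lay between -0.77 and -0.28. Muscle markers scored 1.85 in control 2 and -0.61 to 0.03 elsewhere, and keratinocyte markers 1.59 in relapsed 3 and -0.49 to -0.23 elsewhere. The part of fat, muscle or skin tissue in the members' values was not tested. Without relapsed 1, the differences were 0.31 for Csf1, 0.89 for Csf1r, 0.0069 for Csf2ra, 0.56 for Csf3r, 0.61 for Spi1 and -0.91 for Sall1.

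**Figure D3:**
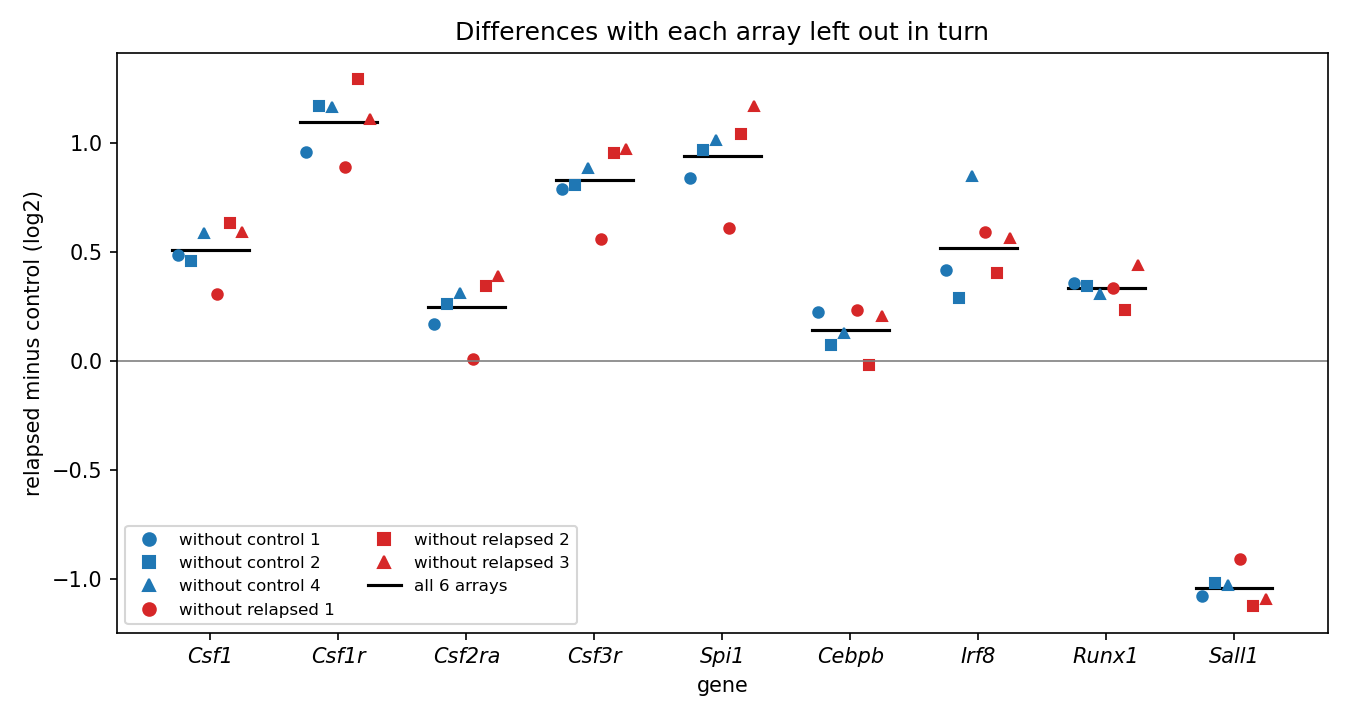
Relapsed minus control difference (log2) of each member with all 6 arrays (black line) and with each array left out in turn (blue for controls, red for relapsed). Without relapsed 1 the differences of Csf1, Csf2ra, Csf3r and Spi1 shrink to 0.31, 0.0069, 0.56 and 0.61, while those of Csf1r and Sall1 stay at 0.89 or more in size in all 6.

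Markers of macrophages were higher in relapsed tumours, and the members were set against them. All 21 markers, a list that holds no member, had a higher mean there, with a median difference of 1.43. Of these 21, 14 rose and none fell, against 3.69% of all genes called higher and 5.47% lower. Mrc1, the mannose receptor, rose by 2.17 ± 0.13, Msr1, a scavenger receptor, by 1.90 ± 0.24, Ptprc, the pan-leukocyte phosphatase CD45, by 1.88 ± 0.36 and Tyrobp, a signalling adaptor, by 1.67 ± 0.20. Of the called list genes named here, Mrc1 and Dcn alone kept their call whichever array was left out. The marker score was -0.80 to -0.54 in control and 0.49 to 0.90 in relapsed tumours, a difference of 1.27. Among 4 measured monocyte markers, Ccr2, the receptor that brings monocytes into tissue, rose by 2.69 ± 0.41 and F13a1, coagulation factor XIII, by 2.02 ± 0.25.

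When each array's marker score was subtracted from every gene, no member was called higher in relapsed tumours and 6 were called lower in limma, namely Csf1, Csf2ra, Cebpb, Irf8, Runx1 and Sall1. This count says little about the members, since 94.6% of all genes were called lower on that scale and 0.441% higher. The 95% intervals that follow use each gene's own variance. On that scale Csf1r differed by -0.17 (95% interval -0.56 to 0.22) and Spi1 by -0.33 (-0.91 to 0.25). Both intervals include 0, but they also include a rise smaller than that of the markers by more than 0.5 log2 units. With limma's moderated variance they ran from -0.62 to 0.28 for Csf1r and from -0.79 to 0.14 for Spi1. Csf3r differed by -0.44 (-0.85 to -0.03, or -0.89 to 0.01 with moderated variance), Csf1 by -0.76 (-1.09 to -0.43), Runx1 by -0.93 (-1.51 to -0.35) and Csf2ra by -1.02 (-1.32 to -0.72). Cebpb differed by -1.13 (-1.996 to -0.26), Irf8 by -0.75 (-1.84 to 0.34, or -1.29 to -0.21 with moderated variance) and Sall1 by -2.31 (-3.07 to -1.55). With each gene's own variance 6 members were again called lower, with Csf3r in place of Irf8, beside 87.9% of all genes. The size of these differences depended on the markers in the score. With a score from Ptprc, Itgam, Cd68, Adgre1 and Aif1 alone, Csf1r differed by -0.39, Spi1 by -0.54 and Csf3r by -0.66. Their adjusted p in limma was 0.18, 0.0565 and 0.0215.

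**Figure D4:**
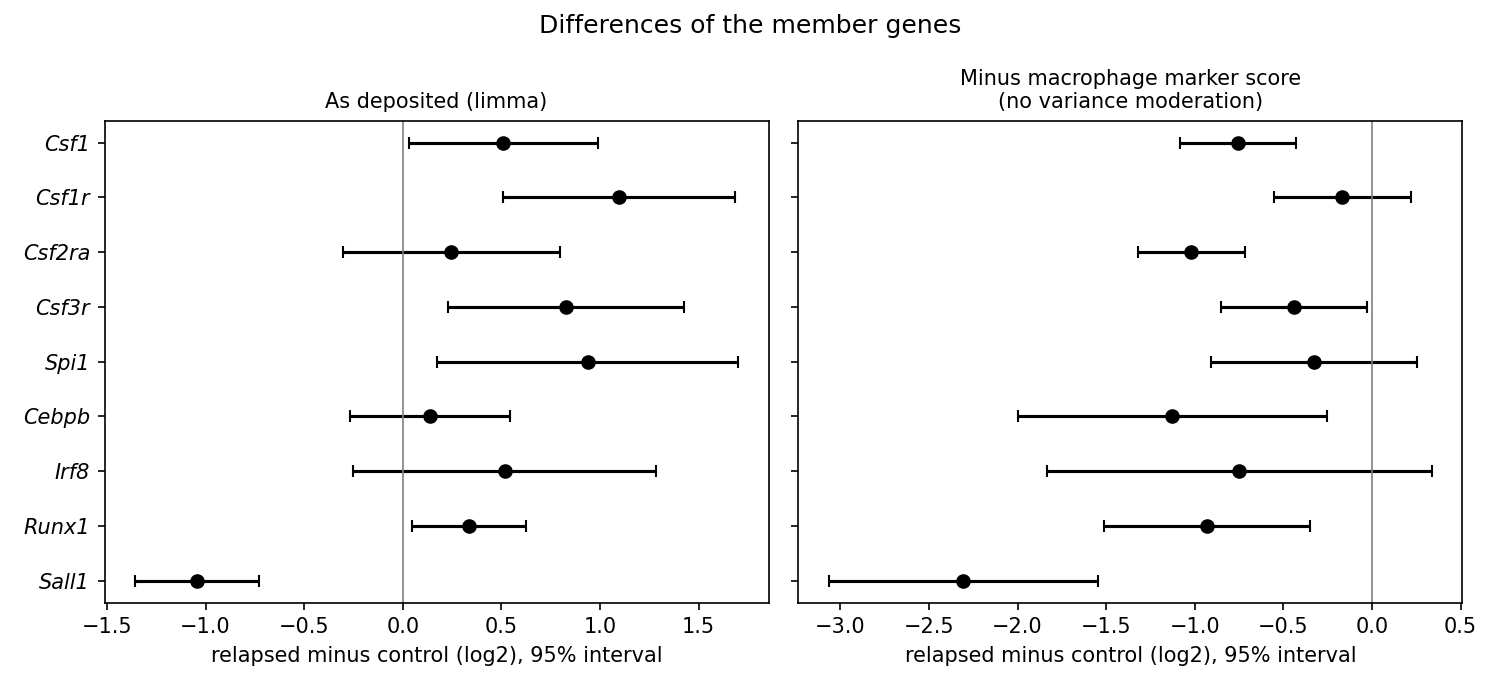
Relapsed minus control difference (log2) of each member with its 95% interval, on the deposited values by limma (left) and after subtracting the score of 21 macrophage markers (right, each gene's own variance). On the left Csf1r lies at 1.10 and Sall1 at -1.04; on the right the intervals of Csf1r, Spi1 and Irf8 include 0.

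Genes that carry the receptors' signals differed in both directions. Of 25 measured genes of this list, 3 rose and 1 fell, with a median difference of 0.45. Over all genes 3.69% were called higher and 5.47% lower, so 1 fall among 25 is no more than the background. Pik3cg, the leukocyte PI3-kinase gamma, rose by 1.29 ± 0.17, Sla, an adaptor that dampens receptor signalling in blood cells, by 1.09 ± 0.22, and Syk, a kinase downstream of immune receptors, by 0.84 ± 0.13, and their adjusted p in limma was 0.0184, 0.0433 and 0.0261. Stat3, a transcription factor activated by the G-CSF receptor and by many cytokines, fell by 0.53 ± 0.08 (adjusted p = 0.0247 in limma). The calls of Stat3 and Sla were lost whichever array was left out, at adjusted p of 0.0506 to 0.0823 and 0.072 to 0.134. Pik3cg kept its call in 2 of these fits and Syk in 1.

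Of 36 other myeloid transcription factors, 2 rose and none fell, with a median difference of 0.19. Over all genes 3.69% were called higher and 5.47% lower, so these counts say little about the list. Mitf, which controls lysosomal and osteoclast genes, rose by 0.65 ± 0.07, and Bhlhe41, a repressor in tissue macrophages, by 0.55 ± 0.07 (adjusted p = 0.0139 and 0.0188 in limma). Maf, whose profile was close to that of Csf1r, was 1.02 ± 0.22 higher and missed the threshold at an adjusted p of 0.0507. Among 7 measured relatives of Runx1 and Sall1, none rose and the 2 that fell were Sall2 and Sall3.

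Effector genes act in phagocytes for killing, signalling and uptake of microbes. All 12 measured had a higher mean in relapsed tumours, with a median difference of 1.10. Of these 12, 6 rose and none fell, against 3.69% of all genes called higher and 5.47% lower. Fcgr3, an activating Fc receptor, rose by 1.61 ± 0.18, Cybb, the catalytic subunit of the phagocyte oxidase, by 1.21 ± 0.26, Btk, a cytoplasmic kinase, by 1.19 ± 0.23 and Tlr4, the receptor of bacterial lipopolysaccharide, by 1.17 ± 0.12, and their adjusted p in limma was 0.0145, 0.0486, 0.0405 and 0.0130. Of 10 dendritic cell markers none was called, with a median of 0.75, and H2-Aa, an MHC class II chain, and H2-Eb1 were 1.93 ± 0.43 and 1.15 ± 0.33 higher. Of 6 mast cell markers none was called, with a median of 0.28, and Ms4a2 and Fcer1a, chains of the IgE receptor, were 0.38 ± 0.22 and 0.73 ± 0.43 higher. Of 9 lymphocyte markers none was called, with a median of 0.33, and Gzma, a granule protease, and Cd4 differed by 0.56 ± 0.22 and -0.31 ± 0.13. Of 9 endothelial markers, 8 had a lower mean in relapsed tumours, Robo4 fell by 0.58 ± 0.12 and none rose.

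**Figure D5:**
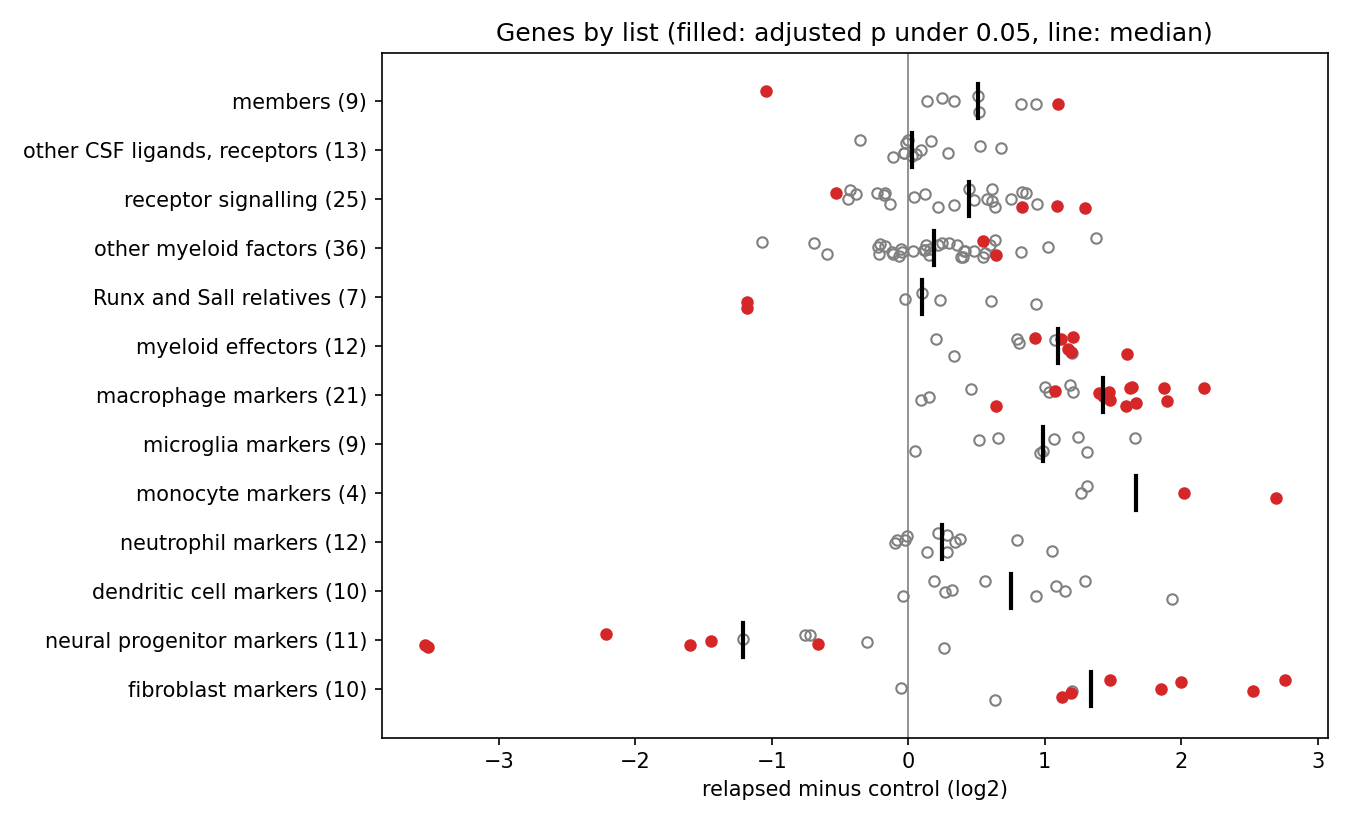
Relapsed minus control difference (log2, x axis) of every measured gene of each list (rows, number of genes in parentheses), with filled red points for adjusted p under 0.05 in limma and a black line at the list's median. The medians are 0.51 for the members, 0.03 for other CSF ligands and receptors, 0.45 for receptor signalling, 1.10 for myeloid effectors and 1.43 for macrophage markers.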

How the data were processed

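Total RNA of 6 tumours was labelled with biotin and hybridised to Affymetrix arrays, 1 per tumour. The deposited table holds log2 intensities per probe set, and the scale was read from the values. Array medians were 6.58 to 6.62 in control and 6.67 to 6.68 in relapsed tumours. The submitters' processing notes name affy without a version, and the normalization method is not given in the sources used here. Values were used as deposited. Genes were named from the platform annotation, with the highest-mean probe set standing for a gene. Of 230 list entries, 216 were measured, and the others were not analysed here.

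Relapsed was compared with control by limma 3.58.1 (lmFit, eBayes; R 4.3.3), with 4 residual and 1.53 prior degrees of freedom, two-sided, Benjamini-Hochberg adjusted over 19938 genes and called under 0.05. The fit was tested on simulated data. The fit with the macrophage score subtracted also ran without variance moderation, an alternative chosen after seeing the data.

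The members and lists were chosen with earlier results of these data known. Named were all members, up to 4 called genes per list with the largest difference (or the 2 with the smallest p where none was called), and for each called member the 3 genes with the nearest profile. Muscle, adipocyte and keratinocyte lists are given by their scores alone. Alternatives were a filter on dim genes, quantile normalization, median centring, averaged probe sets, all probe sets and another variance model. The replicate number as a block and leaving out each array were further ones. The macrophage score was also formed from Ptprc, Itgam, Cd68, Adgre1 and Aif1 alone.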

Additional observations from a re-analysis of the deposited data

How the results depend on the processing

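Over all genes, limma called 735 higher and 1091 lower, and 696 and 1687 with each array centred on its median. Testing all probe sets called 871 higher and 860 lower and 1 member (Sall1) instead of 2. Leaving out 1 array gave 264 to 975 called genes and 0 to 2 called members. No member was called without control 1, 2 or 4 or relapsed 3, where 2, 3, 5 and 5 of 9 members had an unadjusted p under 0.05. In the same settings 4367, 4518, 4313 and 4323 of 19938 genes had one. The 2 of 9 members without control 1 are thus near the share over all genes. Without relapsed 2, 1 member was called, and without relapsed 1 there were 2, Csf3r and Sall1. With the replicate number as a block, 1 residual degree of freedom was left, and 0 genes and 0 members were called (2199 genes and 2 members at an unadjusted p under 0.05). The deviations of same-numbered tumours from their group means correlated at r = -0.337 for number 1 and -0.248 for number 2. Pairs with unlike numbers ran from -0.194 to 0.352. Deviations within a group of 3 arrays sum to 0, so these values cannot tell whether the numbers mark pairs. The labels do not say so either. The count of members called relative to macrophage markers stayed between 4 and 7 over all alternatives. The sign reversed for Cebpb without relapsed 2 (-0.019, in a range up to 0.23 over the arrays left out). The cause of these changes was not tested. With 3 arrays a group, values near the threshold, Csf1r among them, cannot be placed firmly on either side of it.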
